A study of Mus musculus with 6 samples.

Results

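The liver secretes protein hormones, called hepatokines, that act on other organs. Transcripts of 9 such genes, Gdf15, Fgf21, Angptl4, Inhbe, Fst, Ahsg, Fetub, Lect2 and Enho, were followed among the 55357 genes counted in livers of mice given esculetin, a plant coumarin, or its vehicle. The genes were selected on their known function as liver-secreted factors and, for Gdf15, on the size of its rise in the same comparison that is described here. Their values between the groups are therefore given as a description. No p-value of a single one of these genes is given, and counts past a threshold are not read as support. All mice were C57BL6/J wild-type males, 8 to 9 weeks old, gavaged daily for 7 days. All ate a control diet (10% kcal fat) during 4 of these days, followed by 3 days of a high-fat diet (HFD, 60% kcal fat). The vehicle group received 2.5% Tween-80 and the other group esculetin. The dose is 180 mg/kg/d in the sample titles and the treatment protocol but 90 mg/kg/d in the treatment field, so the group is named here without a dose. Each group has 3 libraries and each library pools the livers of 2 mice, so a library value is an average of a pair of animals. Both groups ate the HFD, and no library of control-diet mice was analysed here.

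Hepatokines report the metabolic state of the liver to other tissues. GDF15 acts through the receptor GFRAL in the hindbrain and lowers food intake, and FGF21 acts through an FGF receptor with the co-receptor beta-klotho. Both genes are classical targets of ATF4, the transcription factor of the integrated stress response, and Fgf21 and Angptl4 are also targets of the fatty-acid sensor PPARα. ANGPTL4 inhibits lipoprotein lipase, the enzyme that clears triglyceride from the blood. INHBE is the subunit of activin E, a liver-made ligand that restrains lipolysis in fat, and follistatin, encoded by Fst, binds and neutralises activins. Fetuin-A (Ahsg) and fetuin-B (Fetub) are abundant plasma glycoproteins, LECT2 is a secreted protein that binds the receptors MET and TIE1, and Enho encodes the peptide adropin.

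Sequences just before the transcription start are shown for Gdf15, Angptl4, Inhbe and Fst, the 4 genes past the thresholds given further on, and for Fgf21. They were read from GRCm39 at the canonical GENCODE start. Capitals mark a match to 1 of 5 short motifs searched on both strands, a choice made after the expression values were seen. The motifs were TGATGNAA (composite element of ATF4 and C/EBP), TTGCNNAA (C/EBP), TGACNNNGC (antioxidant response element of NRF2), TCACNCCAC (sterol element of SREBP) and a PPAR element, a direct repeat of GGNCA with 2 bases between the copies of which the second is A. In Gdf15 the wider window holds exons of other annotated transcripts, so only 30 bases around the match are printed, at chr8:71085140-71085169 on the minus strand. Whether these 30 bases lie in such an exon was not checked, and the annotated gene extends further upstream, to 71091537. The other windows are the 250 bases before the start and hold no annotated exon: chr7:45264915-45265164 for Fgf21, chr17:34000805-34001054 for Angptl4, chr10:127190281-127190530 for Inhbe and chr13:114595522-114595771 for Fst, all on the minus strand.
Gdf15: gaccccacaGGTCAGAGGCCAcccagcagt
Fgf21: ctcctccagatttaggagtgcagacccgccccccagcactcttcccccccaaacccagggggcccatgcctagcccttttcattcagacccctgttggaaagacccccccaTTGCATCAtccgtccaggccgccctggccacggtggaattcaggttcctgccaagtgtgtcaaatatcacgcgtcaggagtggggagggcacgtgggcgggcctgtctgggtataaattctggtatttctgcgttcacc
Angptl4: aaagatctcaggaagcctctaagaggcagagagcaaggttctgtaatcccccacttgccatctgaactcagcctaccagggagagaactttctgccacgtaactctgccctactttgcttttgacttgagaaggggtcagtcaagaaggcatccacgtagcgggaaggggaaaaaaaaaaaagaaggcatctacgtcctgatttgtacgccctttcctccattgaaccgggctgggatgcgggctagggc
Inhbe: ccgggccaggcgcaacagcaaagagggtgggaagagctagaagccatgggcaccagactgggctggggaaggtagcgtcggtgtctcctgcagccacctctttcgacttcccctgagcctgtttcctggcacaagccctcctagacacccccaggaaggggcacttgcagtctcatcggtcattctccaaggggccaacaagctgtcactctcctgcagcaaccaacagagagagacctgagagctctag
Fst: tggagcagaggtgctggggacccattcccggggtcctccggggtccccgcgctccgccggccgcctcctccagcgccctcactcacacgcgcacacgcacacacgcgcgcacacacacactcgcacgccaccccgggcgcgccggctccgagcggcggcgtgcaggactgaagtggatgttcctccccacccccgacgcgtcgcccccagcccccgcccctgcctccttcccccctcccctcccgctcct

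The match in Gdf15 was to the PPAR repeat, 49 to 38 bases before the start, and 0.740% of 21757 promoters of protein-coding genes held one in the same window. The match in Fgf21 was to the composite element of ATF4 and C/EBP on the opposite strand, 139 to 132 bases before the start, and 3.39% of promoters held one. Angptl4, Inhbe, Fst, Lect2 and Enho had none of the 5 motifs in this window. Ahsg matched the C/EBP motif, which 9.34% of promoters held, and Ahsg and Fetub each matched the NRF2 motif, which 9.70% held. The sterol motif was in 0 of the 9 windows and in 1.12% of all promoters. A match describes letters only.

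All 9 genes are protein-coding and all passed the filter on low counts. For 8 of them every library reached the filter's minimum of 0.309 CPM (counts divided by the effective library size), and Fgf21 reached it in 5 libraries, of which 2 were vehicle libraries. Total counts per library lay between 27957713 and 34920922 and were larger in the esculetin group, with no overlap. All other CPM values are counts divided by the effective library size. This size is normalised by TMM, a scaling factor estimated per library, and these factors lay between 0.979 and 1.02. A count of 3 then corresponded to between 0.0864 and 0.109 CPM. A gene counted as called where edgeR's quasi-likelihood test over all genes gave p under 0.05 before adjustment together with more than 1.5-fold change, the thresholds of the study. The 8 hepatocyte markers were abundant in every library, and their summed level, most of it Alb, was 83158 to 87377 CPM with vehicle and 82194 to 89119 with esculetin. Of these 8, 0 were called, against 3.13% of all genes, 7 had a log2 fold change above 0, and Serpina1c and Apoa2 were higher with esculetin without overlap, as were 9.2% of all genes. In bulk tissue a smaller share of a cell type and less RNA per cell cannot be told apart.

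Levels of different genes were compared per length, as counts per kilobase of annotated exon scaled by library size (FPKM), and spanned a wide range in the vehicle libraries. Ahsg was the most abundant with a mean of 1115 FPKM, and its counts were 0.612% of all counts of the vehicle libraries. Fetub followed with 117 FPKM, Lect2 with 66.4, Angptl4 with 14.3, Enho with 8.76, Inhbe with 7.00, Fst with 1.67, Fgf21 with 0.554 and Gdf15 with 0.203 (vehicle means, n = 3). The ranges of neighbours did not overlap from Ahsg down to Enho. Enho and Inhbe overlapped, as did Fst and Fgf21, and Fgf21 and Gdf15. With esculetin the order of the first 6 genes was the same, while Gdf15 had the 7th highest mean, ahead of Fst and Fgf21. The esculetin ranges of these 3 genes overlapped, with 0.765 to 1.20 FPKM for Gdf15, 0.379 to 1.01 for Fst and 0.502 to 0.789 for Fgf21. Gdf15 and Fgf21 were thus the lowest in the vehicle libraries. The vehicle mean of Gdf15 was higher than that of 12.3% of the genes tested, that of Fgf21 higher than 26.4%, and that of Ahsg higher than 99.8%.

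**Figure D1:**
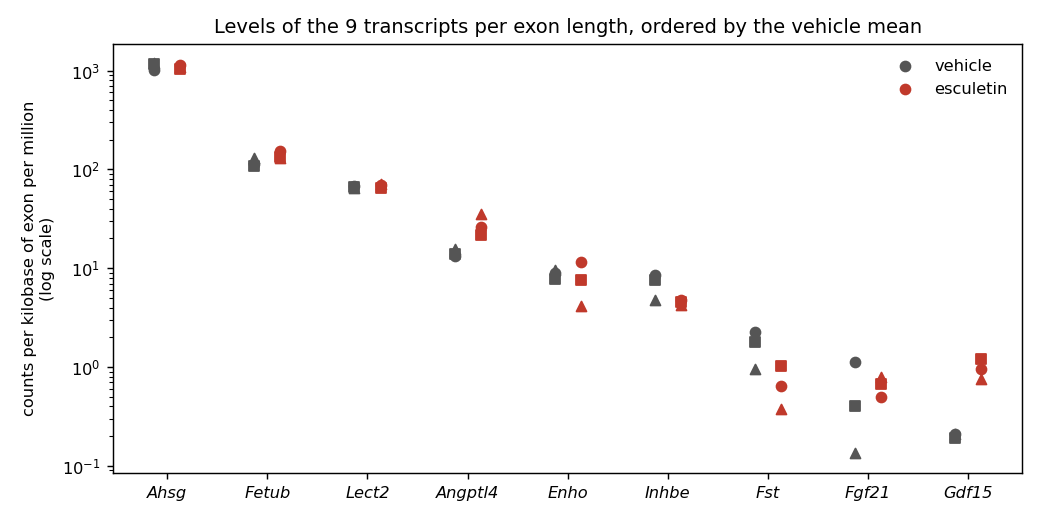
Levels of the 9 hepatokine transcripts per exon length in each library (FPKM, log axis), ordered by the vehicle mean, with grey symbols for vehicle and red for esculetin, and circles, squares and triangles for replicates 1, 2 and 3. Ahsg lies near 1115 in the vehicle libraries and Gdf15 near 0.203, and Gdf15 is the transcript at the low end whose esculetin symbols stand clear of its vehicle symbols.

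Gdf15 (ENSMUSG00000038508, chromosome 8 from 71082038 to 71091537) showed the largest difference of the 9 genes. Its counts were 14, 14 and 13 in vehicle replicates 1 to 3, and 70, 94 and 58 in esculetin replicates 1 to 3. These correspond to 0.476, 0.429 and 0.474 CPM with vehicle and 2.17, 2.71 and 1.73 CPM with esculetin. All 3 esculetin libraries were above all vehicle libraries, and the vehicle libraries were nearly alike. Counting error is wide at this depth, since 14 counts have an exact 95% Poisson interval from 7.65 to 23.5 and 58 counts one from 44.0 to 75.0. The gene was chosen by this rise, so the distance between the groups is a description. The fitted log2 fold change was 2.25 (standard error 0.31), a 4.77-fold difference, and 8 of the 14433 genes tested had a larger one. It lay between 2.08 and 2.40 when each library was left out in turn. The vehicle mean was 0.460 ± 0.026 CPM and the SD with esculetin 0.489 CPM (n = 3 each), and even with esculetin no library exceeded 2.71 CPM. Macrophages can also make Gdf15, and the summed level of 8 macrophage markers was 308 to 411 CPM with vehicle and 316 to 324 with esculetin. Of these 8 markers 0 were called, against 3.13% of all genes, 1 had an unadjusted p-value under 0.05 in edgeR, against 11.9%, and 3 were lower with esculetin without overlap, against 8.24%. Their part in the values of Gdf15 was not tested.

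Fgf21 (ENSMUSG00000030827, chromosome 7 from 45263301 to 45266963) did not follow Gdf15. Its counts were 45, 18 and 5 with vehicle and 22, 32 and 36 with esculetin, or 1.53, 0.552 and 0.182 CPM against 0.684, 0.922 and 1.07 CPM. The esculetin libraries lay inside the range of the vehicle libraries, which held both the highest and the lowest value. The log2 fold change was 0.24 with a standard error of 0.60. Its sign rested on single libraries, since it was -0.21 without vehicle replicate 3 and 1.25 without vehicle replicate 1. The coefficient of variation among vehicle libraries was 92.3%, against 5.74% for Gdf15. The value of Gdf15 is no measure of its stability, since 14 counts alone have a 95% Poisson interval from 7.65 to 23.5. Pancreatic acinar cells also express Fgf21, and 9 of 11 acinar markers, Cpa1, Pnlip and Prss2 among them, had 0 counts in all libraries. The summed level of the 11 markers, carried by Ctrl and Cela2a, was 0.948 to 1.5 CPM with vehicle and 0.373 to 0.567 with esculetin, without overlap. Cela2a was called lower (log2 fold change -0.94, standard error 0.41, adjusted p = 0.414, edgeR). The part of these markers in the values of Fgf21 was not tested.

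Angptl4 (ENSMUSG00000002289, chromosome 17 from 33992724 to 34000804) was higher with esculetin in every library. It had 59.9, 62.5 and 71.0 CPM with vehicle and 117, 96.6 and 158 CPM with esculetin, and the groups did not overlap. The log2 fold change was 0.94 (standard error 0.16), a 1.92-fold difference, and it lay between 0.73 and 1.09 when each library was left out. The gene is also strongly expressed by adipocytes. Of 5 adipocyte markers, Lep and Retn had 0 counts in all libraries, Adipoq and Plin1 had at most 5 counts in any library, and Cfd had 18, 8 and 0 counts with vehicle and 36, 24 and 36 with esculetin. The sum of the 5 markers was 0 to 0.612 CPM with vehicle and 0.893 to 1.19 with esculetin, without overlap. Cfd was called higher (log2 fold change 1.72, standard error 0.72, adjusted p = 0.393, edgeR), and the part of these markers in the values of Angptl4 was not tested. Lpl, which encodes lipoprotein lipase, had 35.8, 46.4 and 36.0 CPM with vehicle and 22.6, 27.9 and 32.9 with esculetin. Its groups did not overlap in the other direction, as in 8.24% of all genes. Its log2 fold change of -0.50 (standard error 0.15, edgeR unadjusted p = 0.00702 and adjusted p = 0.246) stayed under the fold threshold of 1.5.

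Inhbe (ENSMUSG00000047492, chromosome 10 from 127184726 to 127190280) was lower on average with esculetin, with 45.4, 40.9 and 25.4 CPM in the vehicle libraries and 25.6, 24.3 and 22.7 in the esculetin libraries. Vehicle replicate 3 lay within the esculetin range and replicates 1 and 2 lay above it. The log2 fold change was -0.62 (standard error 0.18), just past 1.5-fold, and it was -0.45 without vehicle replicate 1 and -0.83 without vehicle replicate 3. Inhbc, which encodes the activin C subunit, lies 608 bp away on the same strand. It had 63.2, 55.0 and 55.5 CPM with vehicle and 41.6, 48.2 and 53.0 with esculetin, a log2 fold change of -0.28 (standard error 0.10, adjusted p = 0.326, edgeR's quasi-likelihood test). The ratio of Inhbe to Inhbc per exon length was 0.444, 0.460 and 0.284 with vehicle and 0.382, 0.313 and 0.265 with esculetin, so the groups overlapped in it.

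Fst (ENSMUSG00000021765, chromosome 13 from 114588731 to 114595521), whose product neutralises activins, was lower on average by a larger factor. It had 10.7, 8.47 and 4.52 CPM with vehicle and 3.04, 4.78 and 1.79 with esculetin. Again vehicle replicate 3 was the lowest of its group, and esculetin replicate 2 lay just above it. The log2 fold change was -1.30 (standard error 0.37), which leaves 0.406 of the vehicle level, and it lay between -1.71 and -1.01 when each library was left out. Spread among replicates was high in both groups, with coefficients of variation of 39.7% and 46.9%. Per exon length, the ratio of Fst to the sum of the activin subunits Inhba, Inhbb, Inhbc and Inhbe was 0.0720, 0.0646 and 0.0373 with vehicle and 0.0318, 0.0473 and 0.0161 with esculetin, and the groups overlapped. Inhbc was the largest part of this sum, with a vehicle mean of 17.6 FPKM, against 7.00 for Inhbe, 3.02 for Inhba and 0.740 for Inhbb. How well follistatin binds the product of each subunit was not tested, so the ratio does not measure neutralised activin. Vehicle replicate 3 was thus the lowest vehicle library for Fgf21, Inhbe and Fst alike.

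The 4 remaining genes differed little. Fetub (ENSMUSG00000022871, chromosome 16 from 22736127 to 22758528) had 386, 365 and 441 CPM with vehicle and 526, 457 and 447 with esculetin. The lowest value with esculetin was just above the highest with vehicle, and the log2 fold change was 0.26 (standard error 0.098). Ahsg (ENSMUSG00000022868, chromosome 16 from 22710027 to 22718201) ends 17925 bp before Fetub and is read from the same strand, yet had 5479, 6334 and 6428 CPM with vehicle and 6230, 5671 and 5856 with esculetin. Its groups overlapped, and the log2 fold change was -0.039 (standard error 0.090). The ratio of Fetub to Ahsg per exon length was 0.113, 0.0923 and 0.110 with vehicle and 0.135, 0.129 and 0.123 with esculetin, and did not overlap.

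Lect2 (ENSMUSG00000021539, chromosome 13 from 56684477 to 56696569) varied little, with 122, 118 and 117 CPM with vehicle and 125, 117 and 129 with esculetin. The log2 fold change was 0.052 (standard error 0.072). Enho (ENSMUSG00000028445, chromosome 4 from 41638144 to 41640376) was close to constant with vehicle, at 11.7, 10.4 and 12.6 CPM, but spread from 15.2 over 10.1 to 5.43 CPM in the esculetin replicates 1, 2 and 3. Its coefficient of variation was 9.49% with vehicle and 47.7% with esculetin, and the log2 fold change of -0.18 (standard error 0.29) turned to 0.13 without esculetin replicate 3.

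**Figure D2:**
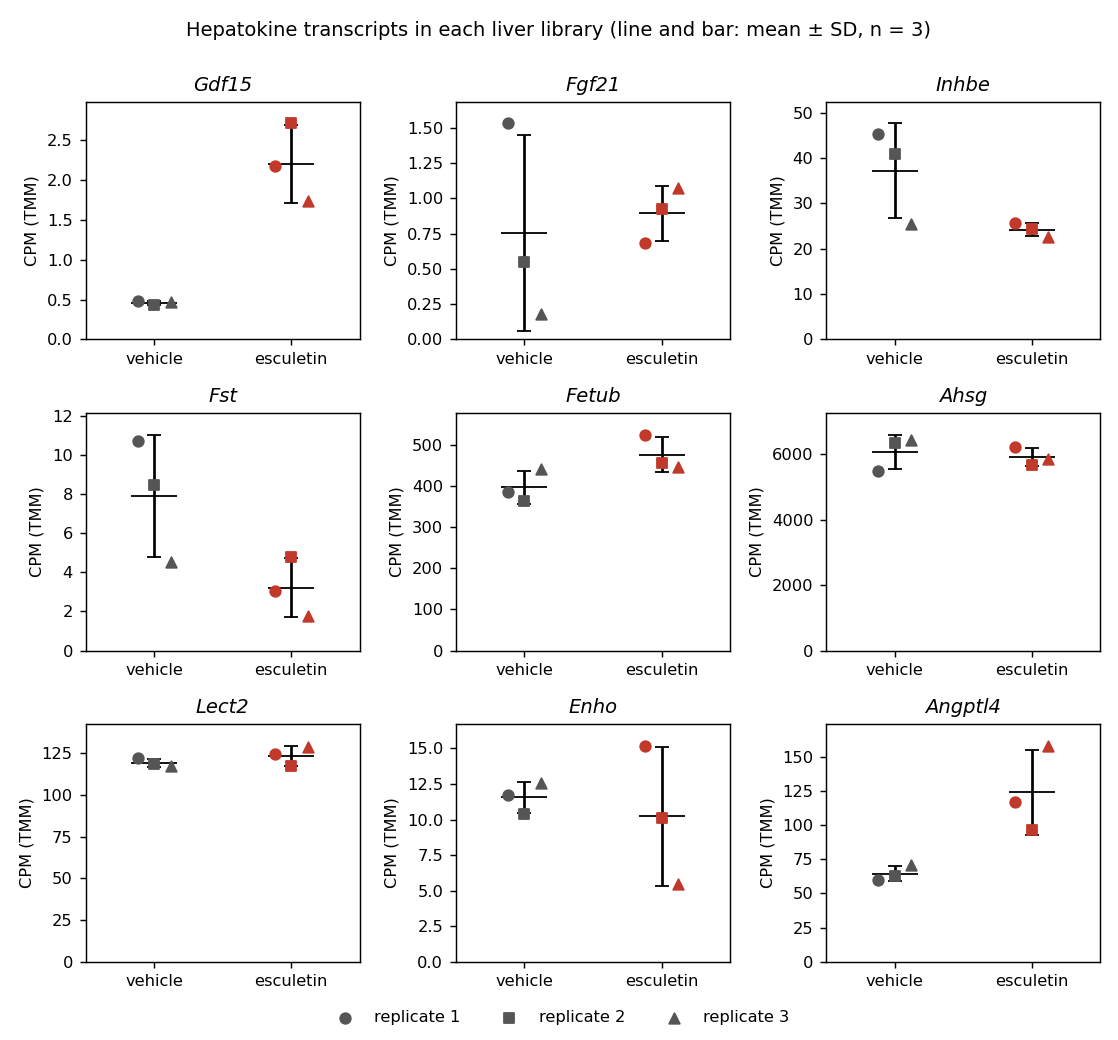
Level of each hepatokine transcript in each library (CPM, TMM-normalised, axes from 0), with symbols for replicates 1 to 3 and the mean ± SD of each group. Gdf15, Angptl4 and Fetub are the panels in which the 3 esculetin libraries sit above all vehicle libraries, and vehicle replicate 3 is the low vehicle symbol of Fgf21, Inhbe and Fst.

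Several of these genes overlap others on the opposite strand, and the strand setting of the counting is not given in the sources used here. Fgf21 shares 245 bp of exon with Fut1, which had 2 to 10 counts per library, against 5 to 45 for Fgf21. Lect2 shares 602 bp with Fbxl21, which had 147 to 198 counts per library, against 3218 or more for Lect2. Enho shares 539 bp with Gm12406, which had 0 to 6 counts per library, and 15 bp with Dnai1, which had 20, 34 and 32 counts with vehicle and 13, 8 and 8 with esculetin, against 182 or more for Enho. Ahsg shares 202 bp with Gm30505, which had 41 to 76 counts, and Fst 115 bp with Gm47040, which had 0 to 6. Ahsg, Fst and Inhbe share a further 293, 108 and 204 bp of exon with noncoding genes, Gdf15 shares 391 bp and Fetub 937 bp of exon with the noncoding genes Gm34154 and Gm30611, and none of these was analysed here.

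By the rule given above, 4 of the 9 hepatokine genes were called, against 3.13% of all genes tested. Gdf15 and Angptl4 were called higher, where the share over all genes was 1.37%, and Inhbe and Fst lower, where it was 1.76%. The call of Inhbe was lost in 5 of 14 alternatives, among them limma with trend and the replicate number as a block. Since Gdf15 was selected on this comparison, nothing is read from these counts. The groups did not overlap, with esculetin higher, in 3 genes, against 9.2% of all genes, and in 0 genes with esculetin lower, against 8.24%. The median log2 fold change of the 9 genes was 0.052, and that of all genes tested was -0.0080.

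Among other factors secreted by the liver, Hamp and Tsku were called higher, Hamp not without esculetin replicate 1 and Tsku not without vehicle replicate 2 or esculetin replicate 2. Of 24 further hepatokines and plasma factors, all tested, 2 were called higher, against 1.37% of all genes, and 0 lower. Their median log2 fold change was 0.15, and 19 of the 24 lay above 0. The groups did not overlap, with esculetin higher, in 5, against 9.2% of all genes, and 4 had an unadjusted p-value under 0.05 in edgeR, against 11.9% of all genes. Hamp, which encodes the iron hormone hepcidin, had 289, 178 and 277 CPM with vehicle and 551, 298 and 436 with esculetin, and the groups did not overlap (log2 fold change 0.79, standard error 0.23, adjusted p = 0.240, edgeR). Tsku, which encodes the secreted protein tsukushi, had 76.3, 56.0 and 77.8 CPM with vehicle and 115, 140 and 71.8 with esculetin, where replicate 3 lay within the vehicle range (log2 fold change 0.63, standard error 0.21, adjusted p = 0.294, edgeR). Lcn2, which encodes the iron-siderophore binding protein lipocalin 2, had the largest log2 fold change of the list but overlapping groups, with 1.57, 3.40 and 8.56 CPM with vehicle and 20.3, 5.30 and 7.73 with esculetin (1.31, standard error 0.59, unadjusted p = 0.0527, adjusted p = 0.429, edgeR). It was called with limma-voom, with limma with trend, without the filter, and without vehicle replicate 3, esculetin replicate 2 or esculetin replicate 3. Igfbp2, named after its values were seen, encodes a binding protein of insulin-like growth factors. It had a log2 fold change of 0.35 (standard error 0.085, unadjusted p = 0.00207, adjusted p = 0.174, edgeR), under the fold threshold.

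Receptors and partners of the hepatokines were tested for 14 of 17 genes. Of these, 0 were called in edgeR, against 3.13% of all genes, and 0 in DESeq2, limma-voom or limma with trend. An unadjusted p-value under 0.05 in edgeR was reached by 2, Lpl and Fgfr3, against 11.9% of all genes. The same 2 were lower with esculetin without overlap, against 8.24% of all genes. Gfral, the receptor gene of GDF15, had 0 counts in all libraries, and Ret, its signalling partner, had 2 counts in all. Klb, which encodes beta-klotho, had 26.6 ± 4.20 CPM with vehicle and 25.5 ± 1.08 with esculetin (SD, n = 3; log2 fold change -0.063, standard error 0.12). Among the FGF receptors, Fgfr3 had 20.7, 22.7 and 23.7 CPM with vehicle and 17.0, 16.4 and 18.2 with esculetin (log2 fold change -0.38, adjusted p = 0.196, edgeR), and Fgfr4, the most typical of hepatocytes, had a log2 fold change of -0.16.

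Of 11 relatives of activin and TGF-beta, 7 were tested and 0 were called by any of the 4 tools, against 3.13% of all genes in edgeR. The 2 genes with an unadjusted p-value under 0.05 in edgeR, against 11.9% of all genes, were Inhbc and Inhba. These 2 were also the genes lower with esculetin without overlap, against 8.24% of all genes. Inhba, which encodes the subunit of activin A, had 21.9, 20.0 and 22.6 CPM with vehicle and 16.8, 12.3 and 16.7 with esculetin (log2 fold change -0.49, standard error 0.13, adjusted p = 0.209, edgeR).

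Of 20 ATF4 stress genes listed, 16 were tested, 0 were called higher, against 1.37% of all genes, and 1 was called lower, against 1.76%. Their median log2 fold change was 0.14, and 12 of the 16 lay above 0, the direction of Gdf15, as did 6993 of all 14433 genes. Slc3a2, which encodes a subunit of amino acid transporters, was the 1 gene higher without overlap, against 9.2% of all genes (log2 fold change 0.20, unadjusted p = 0.0353, edgeR), and Asns the 1 gene lower without overlap, against 8.24%. The gene called lower was Asns, which encodes asparagine synthetase, with 1.77, 2.05 and 3.28 CPM in the vehicle libraries and 1.49, 0.576 and 0.716 in the esculetin libraries (log2 fold change -1.35, standard error 0.40, adjusted p = 0.246, edgeR). Atf4 itself had 75.9 ± 7.57 CPM with vehicle and 76.8 ± 9.86 with esculetin (SD, n = 3), a log2 fold change of 0.015 (standard error 0.11). Ddit3, which encodes the stress factor CHOP, had 4.35 ± 0.267 and 5.28 ± 1.01 CPM (log2 fold change 0.28, standard error 0.18, unadjusted p = 0.157, edgeR). The largest log2 fold changes above 0 were those of Chac1 (0.93, standard error 0.76), Vldlr (0.92, standard error 0.46) and Ddit4 (0.85, standard error 0.41), and the groups overlapped in all 3. Chac1, which encodes an enzyme that degrades glutathione, had 0.272, 1.41 and 7.43 CPM with vehicle and 5.56, 3.63 and 8.00 with esculetin. Vldlr, which encodes a lipoprotein receptor, had 2.45, 0.920 and 0.729 CPM with vehicle and 1.62, 2.51 and 3.61 with esculetin. These 3 genes, and Trib3 at 0.42, were each called in at least 1 alternative. ATF4 is controlled largely at translation, which these counts do not measure.

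The PPARα targets were tested in all 18 cases, with 1 called higher, against 1.37% of all genes, 0 lower, against 1.76%, and a median log2 fold change of 0.12. Of the 18, 16 lay above 0, against 6993 of all 14433 genes. Vnn1, which encodes the pantetheinase vanin 1, had 32.4, 16.9 and 26.1 CPM with vehicle and 36.2, 38.3 and 62.5 with esculetin (log2 fold change 0.86, standard error 0.25, adjusted p = 0.242, edgeR). Cyp4a10, a fatty acid hydroxylase and classical target, had 48.1, 6.38 and 6.45 CPM with vehicle and 13.6, 25.3 and 75.0 with esculetin, and its groups overlapped (log2 fold change 0.90, standard error 0.79). When vehicle replicate 1 was left out, 5 PPARα targets were called, against 495 of 14788 genes in all, and Fgf21 was called as well. Without esculetin replicate 3 the number was 0. The receptor gene Ppara had a log2 fold change of -0.041 (standard error 0.14), and Creb3l3, which encodes a liver regulator of Fgf21, one of -0.085 (standard error 0.087).

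Of 15 transcription regulators of these genes, 2 were called higher, Cebpb and Cebpd, against 1.37% of all genes, and 0 lower, against 1.76%. Cebpb had 24.9, 35.6 and 30.2 CPM with vehicle and 53.7, 43.4 and 40.3 with esculetin, and the groups did not overlap (log2 fold change 0.60, standard error 0.14, adjusted p = 0.175, edgeR). Cebpd had 2.79, 3.25 and 3.90 CPM with vehicle and 7.12, 3.57 and 4.60 with esculetin, which overlapped (log2 fold change 0.62, standard error 0.26, adjusted p = 0.393, edgeR). Foxo1 had 46.9, 41.3 and 56.3 CPM with vehicle and 71.7, 68.0 and 68.0 with esculetin, without overlap. Its log2 fold change of 0.52 (standard error 0.11, edgeR unadjusted p = 0.000733 and adjusted p = 0.136) stayed under the fold threshold. Of the list, 2 genes were higher without overlap, against 9.2% of all genes, and 1 lower, against 8.24%. Without vehicle replicate 1, and likewise without esculetin replicate 1, 0 of the 15 were called. The call of Cebpd was also lost with limma-voom, limma with trend, the replicate number as a block and without vehicle replicate 2, and that of Cebpb with total counts. In edgeR with the filter, 0 genes of these 6 lists had an adjusted p-value under 0.05, against 0.0416% of all genes, while between 2 and 4 genes of each had an unadjusted one, against 11.9% of all genes. In edgeR without the filter the numbers were 6 for the other hepatokines, 1 each for the receptors and the activin family, and 2 each for the ATF4 genes, the PPARα targets and the regulators, and with the replicate block it was 1 in all, Hamp. Limma-voom and limma with trend gave 0. DESeq2 gave Igfbp2, Cebpb and Foxo1 an adjusted p-value under 0.05.

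**Figure D3:**
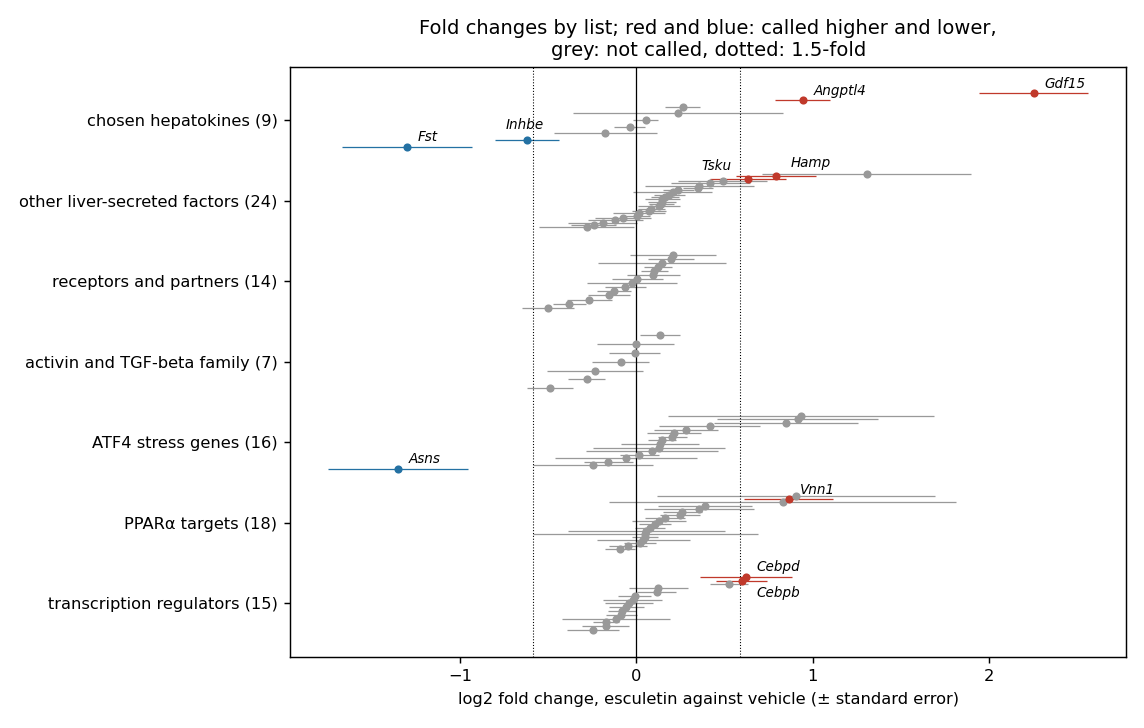
Log2 fold change of esculetin against vehicle with its standard error for each tested gene, grouped by list, with the number tested in brackets, red for genes called higher, blue for genes called lower, grey for genes not called, and dotted lines at a 1.5-fold change. Gdf15 stands at 2.25, Fst at -1.30 and Asns at -1.35, while most genes of the other lists lie between the dotted lines.

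The genes whose pattern over the 6 libraries came nearest to each hepatokine were sought among genes with a mean of at least 1 CPM, 12175 of them for Gdf15. Likeness was the root mean square difference between log2 CPM profiles after the mean of each gene was removed. The nearest to Gdf15 were Cyp2a5 (0.22), Gstm1 (0.36), Depp1 (0.42), the processed pseudogene Gm8834 (0.44) and Nqo1 (0.47). Cyp2a5 encodes the mouse coumarin hydroxylase, and Gstm1 and Nqo1 encode a glutathione transferase and a quinone reductase. Nqo1 had 4.46, 2.64 and 2.19 CPM with vehicle and 7.02, 9.65 and 7.34 with esculetin. Since all of these genes differ between the groups, this likeness is mostly the group difference itself.

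For Fgf21 the nearest genes were Cda (0.29), Acot1 (0.31), G0s2 (0.33), Acot4 (0.34) and the transcribed pseudogene Gm3787 (0.39). Acot1 and Acot4 encode acyl-CoA thioesterases of fatty acid metabolism, and G0s2 encodes an inhibitor of triglyceride lipolysis. None of them was called, and their shared feature was the spread among vehicle libraries. Acot1 had 7.93, 2.76 and 1.93 CPM and G0s2 24.3, 12.6 and 5.72 CPM in vehicle replicates 1, 2 and 3, and like Fgf21 both were highest in replicate 1 and lowest in replicate 3. With esculetin Acot1 had 3.14, 4.84 and 5.13 CPM and G0s2 10.1, 12.5 and 15.5 CPM, again in the order of Fgf21. Cda, the nearest gene, was not in that order with 2.55, 2.94 and 2.72 CPM, and Acot4 ran in the opposite order with 38.2, 34.9 and 30.8 CPM.

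Inhbe, examined in this way after its values were seen, was another case. Its 3 nearest genes were Hmgcs1 (0.060), Lss (0.10) and Hsd17b7 (0.11), which encode enzymes of cholesterol synthesis. Hmgcs1 had 258, 247 and 148 CPM with vehicle and 136, 138 and 125 with esculetin, so vehicle replicate 3 lay nearer to the esculetin libraries than to the other vehicle libraries, as it did for Inhbe. Its groups did not overlap, whereas those of Inhbe did.

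**Figure D4:**
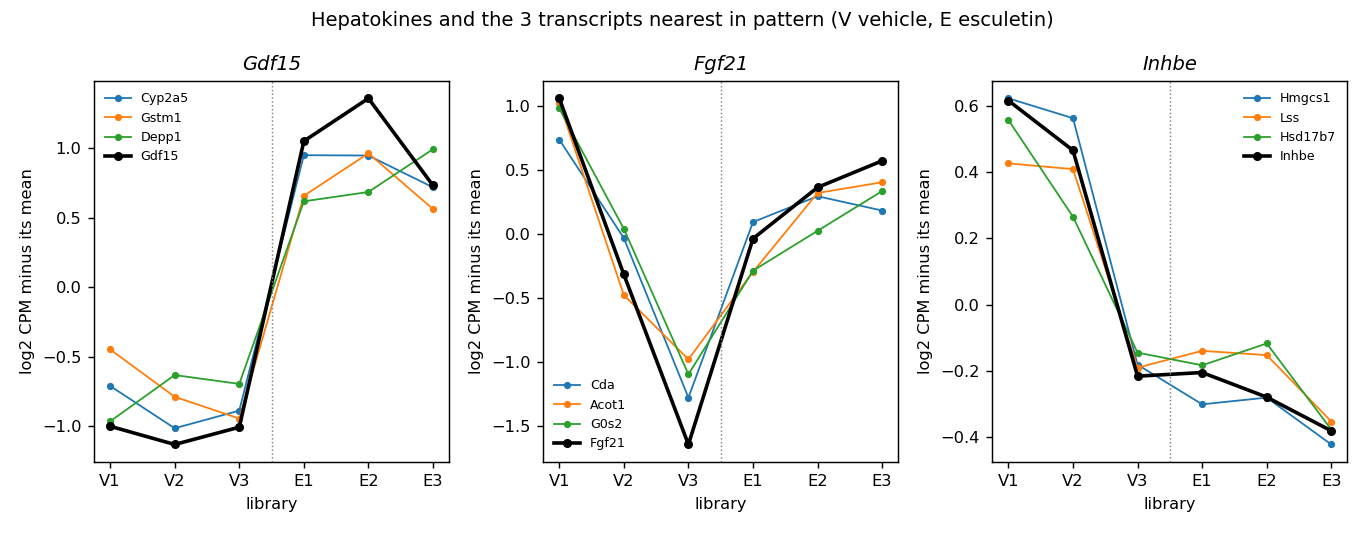
Log2 CPM of Gdf15, Fgf21 and Inhbe (black) and of the 3 transcripts nearest in pattern to each (coloured), minus the mean of each gene over the 6 libraries, for vehicle (V1 to V3) and esculetin (E1 to E3) libraries, where lines only join the values of 1 gene. Gdf15 steps from -1.13 in V2 to 1.36 in E2, Fgf21 ranges from 1.06 in V1 to -1.64 in V3, and Inhbe is high only in V1 (0.62) and V2 (0.47).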

How the data were processed

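RNA of pooled mouse livers was sequenced in 3 vehicle and 3 esculetin libraries. For GRCm39, paired-end reads were aligned by the authors (HISAT2 2.2.1), who deposited raw featureCounts counts that are not normalised. The submitters' processing notes list both GRCm39 and mm10. The annotation release, strand setting and handling of multi-mapped reads are not given in the sources used here. Columns were matched to samples by the diet and dose in their names and the replicate number of the titles.

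Symbols, positions and exon lengths were taken from GENCODE for GRCm39, where 54749 of the 55357 identifiers were found. Counts were filtered with filterByExpr, which left 14433 genes, normalised with TMM, and tested with edgeR 4.0.16 under R 4.3.3 by quasi-likelihood. Each standard error was the size of the log2 fold change over the root of its F statistic. The biological coefficient of variation was 14.6%. Log2 CPM used a prior count of 2. The test was checked on simulated data. Replicates of a group differed by a chi-square of 26.2 or more per gene, so none was a copy of another in its group. Members, gene lists and named genes were chosen with earlier results of these data known. Named were the 9 genes, at most 6 called genes of each list, Atf4, Ddit3, Ppara, Creb3l3, Klb, Inhbc and Cebpb, and the 5 genes nearest in pattern to Gdf15 and Fgf21. Lpl, Fgfr3, Fgfr4, Inhba, Igfbp2, Foxo1, Cyp4a10, Gfral, Ret, Lcn2, Chac1, Vldlr, Ddit4, Trib3, Slc3a2, Cfd, Cela2a and the overlapping genes were added to the text with their values in view. P-values measure the spread between these pools of mice. Poisson intervals and minimum counts cover counting error only.

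Alternatives were DESeq2 1.42.0, limma-voom and limma with trend (limma 3.58.1), scaling by DESeq2 size factors or by total counts, omitting the filter or requiring 10 counts per library, leaving out libraries in turn, blocking on replicate number, and other thresholds.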

Additional observations from a re-analysis of the deposited data

How the results depend on the processing

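The log2 fold changes of Gdf15, Angptl4, Fst, Fetub and Lect2 kept their sign and call in all 14 alternatives of tool, scaling, filter, block or libraries. With other thresholds Fetub was called when folds were ignored, Angptl4 was not called with a fold over 2, and none of the 9 was on adjusted p-values. Inhbe kept its sign but was not called with limma with trend (-0.58), with the replicate block (-0.58), or without vehicle replicate 1 (-0.45), vehicle replicate 2 (-0.55) or esculetin replicate 3 (-0.57). Fgf21 turned to -0.21 without vehicle replicate 3 and was called without vehicle replicate 1 (1.25). With 1 library left out Ahsg ranged from -0.11 to 0.0048 (positive without vehicle replicate 3) and Enho from -0.57 to 0.13 (positive without esculetin replicate 3). With at least 10 counts in every library Fgf21 was not tested.

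The number of genes called was 452, and 776 without the filter, 1711 without a fold threshold, 217 with a fold over 2, 6 on adjusted p-values (193 by DESeq2, 477 without the filter, 15 with the replicate block, 5 to 7 with limma or other scaling, 2 to 45 with 1 library left out, the highest without vehicle replicate 1), and 411 to 588 when 1 library was left out. Of the 9 hepatokines 2 were called with a fold over 2, 0 with an adjusted p-value under 0.05 in edgeR (5 unadjusted; 4 by DESeq2 or without the filter, 1 with 10 counts per library, the replicate block or without vehicle replicate 3, 0 with limma-voom or trend), from which nothing is read, and 3 or 4 when 1 library was left out. For the other hepatokines, with 2 called, the number was 4 without a fold threshold, 0 with a fold over 2, 0 with an adjusted p-value, and 1 (without vehicle replicate 2) to 5 (without vehicle replicate 3) with 1 library left out. For the receptors, with 0 called, it was 2 without a fold threshold and 0 to 1 with 1 library left out (Lpl, without esculetin replicate 3). For the activin family, with 0 called, it was 2 without a fold threshold. For the ATF4 genes, with 1 called, it was 2 with DESeq2, limma with trend, the replicate block or no fold threshold, 3 with limma-voom, 4 without the filter, 0 with an adjusted p-value, and 1 to 3 (without vehicle replicate 2) with 1 library left out. For the PPARα targets, with 1 called, it was 3 with no filter, 2 when folds were ignored, 0 with a fold over 2 or an adjusted p-value, and 0 to 5 with 1 library left out. For the regulators, with 2 called, it was 1 with limma-voom, limma with trend, total counts or the replicate block, 4 without a fold threshold, 0 with a fold over 2 or an adjusted p-value, and 0 to 3 with 1 library left out. The causes were not tested.

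Libraries sharing a number deviated from their groups with correlations of -0.069, -0.011 and 0.0027, which gives no pairing. Under the replicate block 399 genes and 3 of the 9 hepatokines were called. Depth limits Gdf15 and Fgf21 most, with as few as 13 and 5 counts in a library.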

Other observations

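The remaining hepatokines also had near neighbours in pattern over the 6 libraries, which were looked up after the values were seen. Angptl4 lay nearest to the pseudogene Gm12411 (root mean square difference 0.12 on the log2 scale), the noncoding gene Gm17634 (0.13), Ip6k2 (0.14), Fmo2 (0.16) and Plekhf1 (0.17). Ip6k2, an inositol hexakisphosphate kinase, had 34.1, 41.3 and 45.6 CPM with vehicle and 65.3, 66.7 and 82.6 with esculetin, and Fmo2, a flavin monooxygenase, had 21.4, 17.6 and 22.0 against 29.5, 31.5 and 47.2. In Fmo2 and Ip6k2, as in Angptl4, esculetin replicate 3 was the highest library.

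Fst lay nearest to Gm43314 (0.29) and Tsc22d1 (0.29), a transcription regulator with 124, 156 and 97.6 CPM with vehicle and 59.5, 90.3 and 37.4 with esculetin. Itgb2l (0.38) and Zfp972 (0.38) followed, and Mvd, an enzyme of cholesterol synthesis, was the fifth nearest (0.39). Enho lay nearest to Camk2b (0.072), a calcium-dependent kinase with 7.35, 7.48 and 8.05 CPM with vehicle and 10.0, 6.45 and 3.79 with esculetin, so that both genes spread among the esculetin libraries in the same order. Fetub lay nearest to Cdip1 (0.025), the ribosomal protein genes Rps19 (0.032) and Rps24 (0.032), Orc5 (0.034) and Wfdc17 (0.039).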
